A study of Capsella orientalis and Capsella grandiflora with 23 samples.

Results

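The genes described here are the 3698 Capsella grandiflora genes whose parental bias in endosperm could be measured in both of the deposited grandiflora crosses. A gene was kept when its exonic SNPs carried at least 20 allele-specific reads in both directions of both tables. The 3698 genes came from 21307 genes with an exonic SNP in either grandiflora table and from 12067 with one in both. The choice used depth alone and no allele ratio.

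The series holds 23 samples of C. grandiflora and C. orientalis, and 6 of them are RNA of grandiflora hybrid endosperm dissected 6 days after pollination, with 300 to 500 seeds per sample. Per the labels, accessions named A and B were crossed in both directions, as were accessions named C and D, and the C by D pair has further samples in both directions. The labels name no mutant and no treatment other than emasculation and hand pollination. Each cross thus joined 2 of 4 accessions and shared neither a parent nor a library with the other cross. The tables label each column by parent and by a direction number, without an accession, so the crosses are called pair 1 and pair 2 and each has a direction 1 and a direction 2. The labels do not say that the plants were kept apart or how samples of the same cross were combined, so the spread between libraries may be partly technical. The tables give genes as intervals on numbered scaffolds without names or sequences, and the sources used here name no genome build for them. Endosperm could therefore not be checked against marker genes, and no role can be given to a gene.

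In genomic imprinting the allele of one parent is the more active because of the parent it came from. In flowering plants it is found mostly in endosperm, the tissue that feeds the embryo, and it depends on DNA methylation and Polycomb marks that differ between the maternal and the paternal genome. Paternally and maternally expressed genes are known by the parent whose allele is active. Reciprocal crosses separate such a parental effect from a difference between accessions, because an accession effect changes parent when the cross is turned round. C. grandiflora is an outcrossing species with much variation among plants, so a second cross with other parents asks whether a bias belongs to the gene or to the parents used.

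Endosperm carries 2 maternal genomes and 1 paternal genome, so an unbiased gene has about 2 maternal reads for each paternal read. The deviation of a gene in a direction is log2 of maternal over paternal reads, with 0.5 added to each, minus 1, and the deviation in a cross is the mean of its 2 directions. A deviation of 0 is the dosage, negative values are paternal and positive values maternal. A deviation of -1 corresponds to a maternal share of 50% and one of 1 to a share of 80%. A gene is called biased in a cross when its deviation was at least 1 in size and both directions lay on that side of the dosage. This is a rule of size and no test.

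The 4 directions were not alike. Over the 3698 genes the median maternal share was 66.4% and 66.8% in the 2 directions of pair 1, and 67.7% in direction 2 of pair 2, but 54.0% in direction 1 of pair 2. In that direction 2765 genes lay below the dosage and 933 above it, and its median deviation was -0.77. The directions of pair 1 held 4724952 and 4654933 reads of these genes, with a median of 594.5 and 595 per gene. Those of pair 2 held 361791 and 484235, with a median of 53 and 82. The median counting error of a deviation was 0.09 in pair 1 and 0.29 in pair 2. A read covering more than 1 SNP entered the sums more than 1 time, so all counting errors and intervals given here cover counting error only and are too small.

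Most genes sat near the dosage in pair 1 and were shifted to the paternal side in pair 2. The median deviation was -0.02 in pair 1 and -0.41 in pair 2, and 83.3% and 45.7% of genes lay within 0.5 of the dosage. Across genes the deviations of the crosses had a Pearson r of 0.43 and a Spearman rho of 0.22 (n = 3698 genes, which share libraries and are not independent). For the 3404 genes with a pair 1 deviation under 1 in size, r was 0.11. The directions of a cross often differed: the deviation of the directions from their mean was at least 1 in log2 for 13.2% of genes in pair 1 and 36.6% in pair 2. This value holds accession differences, shifts of whole libraries and counting error together, and they were not separated. The directions of pair 2 already differed in their medians, at -0.77 and 0.05.

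By the size rule 111 genes (3.0% of those measured) were paternal and 135 (3.65%) maternal in pair 1. In pair 2, 442 genes (12.0%) were paternal and 85 (2.3%) maternal. When the median of each direction replaced the dosage as the null, pair 2 had 235 paternal genes (6.35%) and 175 maternal genes (4.73%). The excess of paternal over maternal genes in pair 2 thus shrank with the centring. It also turned round without the low direction: with direction 2 alone as pair 2, 484 genes were paternal and 725 maternal in pair 2 alone, and 66 and 69 in both crosses. A cross is then 1 direction, in which parent and accession cannot be told apart.

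In both crosses 75 genes (2.03%) were paternal and 35 (0.946%) maternal. In pair 1 alone 35 genes (0.946%) were paternal and 98 (2.65%) maternal. In pair 2 alone 365 genes (9.87%) were paternal and 49 (1.33%) maternal. The sides were opposite in 3 genes (0.0811%), and the other 3038 genes were biased in neither cross.

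**Figure D1:**
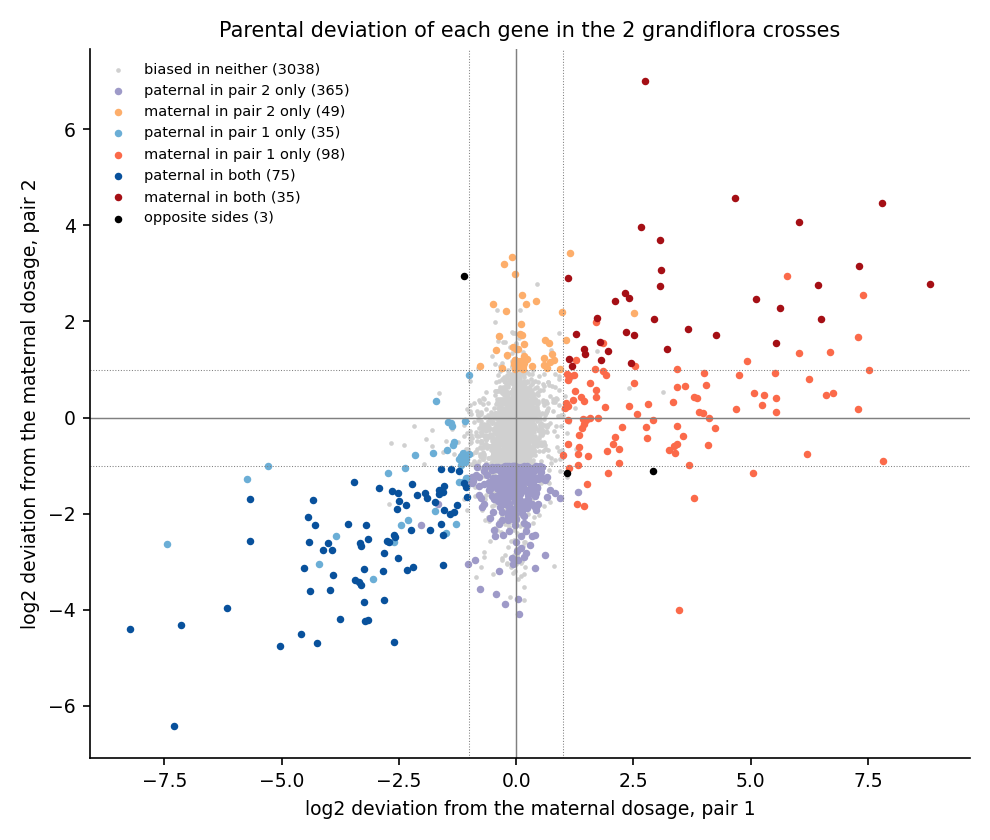
Each point is 1 of the 3698 genes, with its log2 deviation from the maternal dosage in pair 1 on the x axis and in pair 2 on the y axis; colours give the class and dotted lines the size of 1. Genes paternal in both crosses (75) run down the diagonal at lower left, while many maternal genes of pair 1 (98 in that cross alone) lie near 0 on the y axis.

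Paternal bias in pair 1 was found again in pair 2 for 67.6% of genes, against 12.0% of all genes that were paternal there. Those 75 genes made up 17.0% of the paternal genes of pair 2. Maternal bias in pair 1 was found again for 25.9%, against 2.3% of all genes, and these 35 genes were 41.2% of the maternal genes of pair 2. With the median null the shares of the pair 1 lists were 61.3% on the paternal side and 37.2% on the maternal side. The counts in both crosses were then 68 (1.84%) and 51 (1.38%), and 67 of the 75 and all 35 genes kept their class. The genes biased in pair 1 alone then numbered 42 paternal (1.14%) and 86 maternal (2.33%). The difference between the paternal and the maternal share was not tested.

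On the paternal side, the stronger the bias in pair 1 the stronger it was in pair 2. All 40 genes with a pair 1 deviation under -3 lay below the dosage in pair 2, with a median of -3.09, and 34 of them (85.0%) met the size rule there. The 31 genes between -3 and -2 also all lay below it, with a median of -2.13 and 67.7% paternal by the rule. Between -2 and -1 the median in pair 2 was -0.97 and the share 35.2%. The genes nearest the dosage in pair 1 were paternal in pair 2 at 10.8% (deviations from -0.5 to 0) and 9.64% (0 to 0.5).

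On the maternal side the pair 2 medians stayed below 1 in every bin. Genes with a pair 1 deviation of 1 to 2 had a median of 0.30 in pair 2, those of 2 to 3 had 0.62, and the 61 genes of 3 or more had 0.63. The shares that were maternal in pair 2 were 18.5%, 40.0% and 26.2%. Of those 61 genes, 46 lay above the dosage in pair 2 and 15 below it. The bins on both sides are measured from the dosage and were not centred, and the median of all genes in pair 2 was -0.41. That shift enters the contrast between the paternal and the maternal bins.

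**Figure D2:**
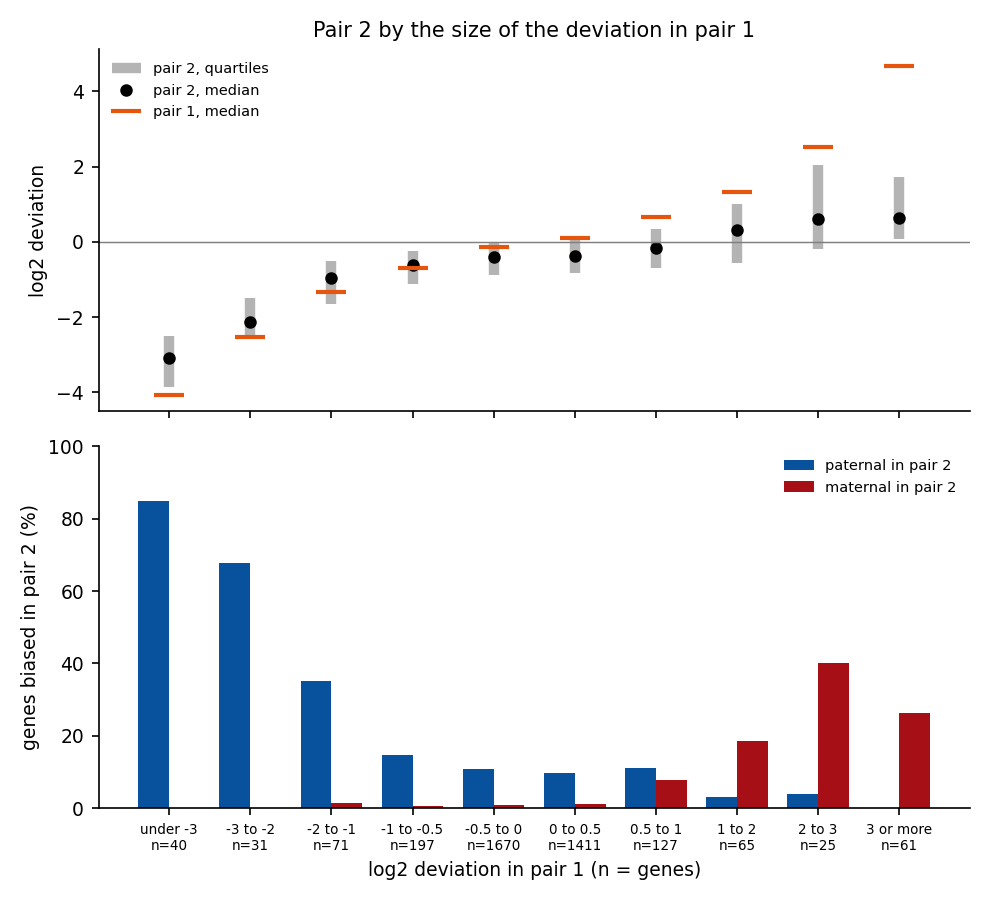
Genes are binned by their log2 deviation in pair 1 (x axis, n genes per bin); the upper panel shows the median (points) and quartiles (bars) of the pair 2 deviation with the pair 1 median (dashes), and the lower panel the percentage of genes biased in pair 2. Pair 2 follows pair 1 on the paternal side (median -3.09 in the lowest bin) but stays near 0.63 in the highest bin. Deviations are from the dosage and not centred, with a pair 2 median of -0.41 over all genes.

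The 75 genes paternal in both crosses had median deviations of -2.81 in pair 1 and -2.49 in pair 2. Their median maternal shares were 14.9% and 27.3% in the directions of pair 1 and 18.8% and 34.0% in those of pair 2. The deviations ran from -8.23 to -1.05 in pair 1 and up to -1.06 in pair 2, where the lowest gene has an allele at 0 and is given below as P1. Single SNPs behaved alike: of SNPs with at least 10 reads in both directions, 275 of 277 in pair 1 and 178 of 180 in pair 2 lay below the dosage. These SNPs entered the gene values, so they describe the evenness of the bias along a gene and add no second measurement.

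The genes named below are, by a stated rule, the 8 paternal and the 8 maternal genes whose smaller deviation of the 2 crosses was largest, among genes with at least 50 reads in every direction. They carry the letters P and M with a number. P1 lies on scaffold 8 at 8166727 to 8168509 on the plus strand. Its maternal share was 1.84% and 0.781% in the directions of pair 1 (1302 and 896 reads), 0% in direction 1 of pair 2 (0 of 116 reads, which allows up to 2.59%) and 10.8% in direction 2 (83 reads). P1 was thus almost wholly paternal in 3 directions and mostly paternal in direction 2 of pair 2. Its deviation was -7.30 ± 0.30 (counting error) in pair 1 and at most -5.16 in pair 2, counting the 0 as 3 reads. The edgeR quasi-likelihood fit over both crosses gave -7.37 ± 0.42 (SE), with a Benjamini-Hochberg adjusted p of 0.00164. P1 rests on 1 SNP in pair 1 and 2 in pair 2.

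P2, on scaffold 7 at 11097355 to 11102864 on the minus strand, rests on more SNPs, 7 in pair 1 and 28 in pair 2. Its maternal shares were 3.71%, 8.66%, 3.57% and 12.1% in the order pair 1 direction 1, pair 1 direction 2, pair 2 direction 1, pair 2 direction 2, which is the order used from here on. The crosses lay within 0.3 of each other, with deviations of -5.04 ± 0.12 and -4.76 ± 0.27 (counting error). The fit gave -4.94 ± 0.25 (edgeR adjusted p = 0.00164). P2 is also the only one of these 8 genes measured in the C. orientalis crosses, where 2 directions had maternal shares of 4.0% and 5.88% and the other 2 had no maternal read among 30 and 71.

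P3, on scaffold 8 at 7633673 to 7635220 on the minus strand, was the least even. Its maternal shares were 0.377%, 0.833%, 1.22% and 38.7%, so direction 2 of pair 2 stood above the other 3 but still below the dosage. The deviations were -8.23 ± 0.57 in pair 1 and -4.41 ± 0.36 in pair 2. P3 passed the fit over both crosses (edgeR adjusted p = 0.0232). It rests on 1 SNP in pair 1 and on 8 in pair 2, whose deviations ran from -6.99 to -0.37. At the SNP position shared by both crosses P3 lay at -8.23 in pair 1 and -6.72 in pair 2.

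P4 on scaffold 4 at 1907519 to 1908913 had maternal shares of 10.1%, 8.92%, 6.67% and 6.98%. P5 on scaffold 7 at 10544636 to 10545973 had 7.41%, 9.78%, 6.29% and 27.7%, on 1 SNP in pair 1 and 4 in pair 2. P6 on scaffold 8 at 9331256 to 9334619 had 12.3%, 10.3%, 7.81% and 22.6%. All 3 lie on the plus strand, and none of their directions reached 30% maternal reads. P7 on scaffold 4 at 2870727 to 2872237, minus strand, had shares of 27.0%, 10.0%, 12.4% and 18.4%. P8 on scaffold 2 at 7693692 to 7697039, plus strand, had 8.46%, 16.2%, 10.8% and 24.8%, with 15704 and 14491 reads in the directions of pair 1, the most of the 8. The adjusted p of P4 to P8 in the edgeR fit lay between 0.00164 and 0.00843, with deviations from -4.46 ± 0.31 (P4) to -3.39 ± 0.19 (P7). Every SNP of the 8 genes with at least 10 reads in both directions lay below the dosage.

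The 35 genes maternal in both crosses had median deviations of 2.75 in pair 1 and 2.08 in pair 2, or 1.89 in pair 2 with alleles at 0 set to 3 reads. Their median maternal shares were 94.3%, 92.4%, 92.9% and 87.7%. Of their SNPs with at least 10 reads in both directions, 114 of 116 in pair 1 and 94 of 97 in pair 2 lay above the dosage.

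M1, on scaffold 4 at 7192684 to 7196495 on the plus strand, had maternal shares of 92.4%, 99.6%, 97.7% and 98.7%. Its deviations were 4.66 ± 0.39 and 4.57 ± 0.60 (counting error), which differ by less than either error, and the fit gave 4.77 ± 0.40 (edgeR adjusted p = 0.0066). One of its 7 SNPs in pair 1 lay below the dosage. M8, on scaffold 5 at 8640281 to 8641210 on the minus strand, was the most deeply read, with 10330 and 13908 reads in pair 1. Its maternal shares were 89.0%, 92.4%, 94.3% and 90.4%, and its fitted deviation was 2.44 ± 0.20 (edgeR adjusted p = 0.00633).

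M3, on scaffold 1 at 5775294 to 5777017, had shares of 94.4%, 94.4%, 96.0% and 97.5%, on 1 SNP in pair 1 and 4 in pair 2. M6, on scaffold 8 at 8945803 to 8947217, had 85.8%, 96.4%, 98.5% and 96.3%. M7, on scaffold 6 at 6198054 to 6200889, had 91.0%, 91.9%, 93.9% and 89.9%. All shares of these 3 genes were above 85%, the ranges of the crosses overlapped in M6 and M7, and each gene passed the fit over both crosses (edgeR adjusted p of 0.0214, 0.0278 and 0.0219).

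The remaining 3 maternal genes had unequal sizes in the crosses. M2, on scaffold 4 at 14607987 to 14609960, had maternal shares of 99.8%, 99.6%, 98.4% and 88.9% and deviations of 7.31 ± 0.60 and 3.16 ± 0.66. These rest on 2, 3, 1 and 7 paternal reads, and with all SNPs the deviations of M2 were 3.9 and 2.4. M4, on scaffold 8 at 2799618 to 2801036, had 4560 of 4560 maternal reads in direction 1 of pair 1, which allows a paternal share of up to 0.0658%, then 98.9%, 95.5% and 90.2%. Of its 5 SNPs in pair 2, 1 lay below the dosage, and at SNP positions shared by both crosses M4 lay at 4.69 and -0.64. Over all its exonic SNPs its deviation was at least 7.54 in pair 1, with 3 paternal reads in place of 0, and 2.77 ± 0.26 in pair 2. M5, on scaffold 6 at 8912943 to 8916184, went the other way, with 95.1% and 90.9% in pair 1 and no paternal read among 129 and 126 in pair 2, which allows paternal shares of up to 2.33% and 2.38%. None of its 16 exonic SNPs in pair 2 had at least 10 reads in both directions. Over exonic SNPs M5 lay at 2.75 and at least 4.41, with 3 paternal reads in place of each 0. With all SNPs the deviations were 6.32 and 2.66 for M4 and 1.52 and 4.06 for M5. M2 passed the fit over both crosses (edgeR adjusted p = 0.0244), and M4 and M5 did not (0.193 and 0.147).

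**Figure D3:**
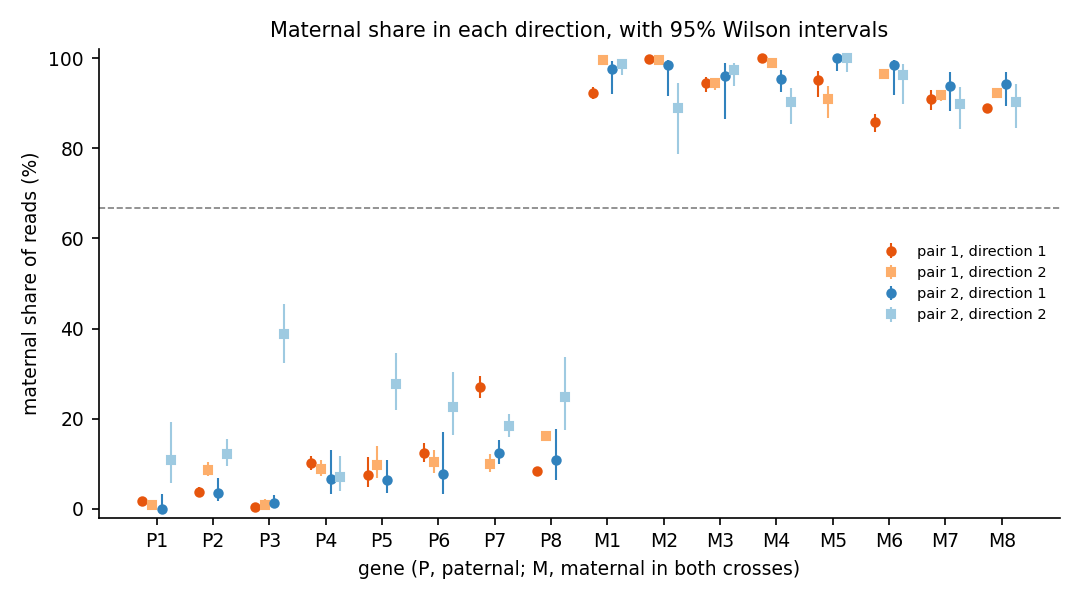
Maternal share of reads (y axis, %) of the 16 genes P1 to P8 and M1 to M8 (x axis) in each of the 4 directions, with 95% Wilson intervals that cover counting error only; the dashed line is the maternal dosage. All directions of P genes lie below the line, the highest being 38.7% in P3, and all directions of M genes lie above it, the lowest being 85.8% in M6.

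Over all 3698 genes the edgeR fit called 52 genes paternal (1.41%) and 13 maternal (0.352%) at an adjusted p of 0.05. Of these, 45 of the 52 and 10 of the 13 were among the genes biased in both crosses by size, so 30 of the 75 and 25 of the 35 did not pass it. The fit and the size rule use the same allele counts, so their overlap is no separate support. The same holds for the adjusted p-values of the P and M genes, which were named for large deviations in both crosses. The called genes had median deviations of -3.26 and 3.36. The fit leaves 1 residual degree of freedom per gene, which is the difference between the crosses, and it made 0 calls without either direction of pair 2.

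Around the size threshold the classes have no gap. The genes just inside it were F1 on scaffold 4 at 991918 to 993291, with deviations of -1.05 and -1.66, F2 on scaffold 2 at 9444090 to 9448008, with -1.40 and -1.06, and F3 on scaffold 4 at 912919 to 914840, with -1.06 and -1.44. F1 had 22838 and 26713 reads in pair 1, and all its 12 SNPs with enough reads lay below the dosage in each cross. The genes just outside were G1 on scaffold 2 at 732301 to 733757, with 7.53 and 0.99, G2 on scaffold 7 at 10334096 to 10338275, with 1.86 and 0.98, and G3 on scaffold 5 at 2687513 to 2690372, with 0.97 and 2.19. With the median null G1 and G2 counted as maternal in both crosses, and F2 as paternal in pair 1 alone.

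The 98 genes maternal in pair 1 alone had a median deviation of 2.55 in pair 1 and 0.19 in pair 2. In pair 2, 40 of them lay within 0.5 of the dosage, 55 were on the maternal side, and for 60 the 95% counting interval excluded a deviation of 1. Another 12 were past the size in pair 2 with directions on both sides. Of their SNPs with at least 10 reads in both directions, 351 of 353 in pair 1 lay above the dosage, and 122 of 194 in pair 2. Their median depth was 465 reads in pair 1, against 1207 for all 3698 genes, and 111 in pair 2, against 137. The count moved with the directions used: without direction 1 of pair 2, 69 genes were maternal in both crosses and 49 in pair 1 alone, and without direction 2 of pair 2 they were 51 and 52.

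The largest differences among them with the other cross within 0.5 of the dosage and at least 50 reads in every direction are named B1 to B4. B1, on scaffold 1 at 9216769 to 9218331 on the minus strand, had maternal shares of 99.8% and 99.1% in pair 1 (544 and 695 reads) and of 63.4% and 81.5% in pair 2 (265 and 298 reads). Its deviations were 6.62 ± 0.65 and 0.46 ± 0.14, on 6 and 19 SNPs. The pair 2 value averages unlike SNPs: of 10 with at least 10 reads in both directions, 4 lay below the dosage and 6 above, from -3.11 to 3.79. B2, on scaffold 8 at 788910 to 791491, had maternal shares of 99.6% and 98.6% in pair 1 and 65.8% and 71.4% in pair 2, close to the dosage in both directions. Its 3 SNPs in pair 2 with enough reads ran from -0.12 to 3.91.

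In B3 and B4 the directions of pair 2 pointed apart. B3, on scaffold 2 at 907692 to 911051, had 98.7% and 99.1% in pair 1 but 86.8% and 47.4% in pair 2. B4, on scaffold 4 at 11197856 to 11199077, had 98.6% and 94.5% in pair 1 and 41.0% and 85.2% in pair 2, with 371 and 644 reads there. In both genes the pair 2 shares fall on either side of the dosage and change with the direction.

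The 35 genes paternal in pair 1 alone were mostly close to the rule in pair 2 as well. Their median deviations were -1.46 and -0.99, and 33 of the 35 lay below the dosage in pair 2. In 17 the pair 2 deviation was past the size while the directions lay on both sides, and only 5 were within 0.5 of the dosage. Among those 5 the named genes A1 to A4 had the largest differences. A1, on scaffold 1 at 17215045 to 17218897, had maternal shares of 33.1% and 43.1% in pair 1 and of 77.8% and 66.7% in pair 2, on 36 and 27 reads. A2, on scaffold 4 at 540791 to 546141, had 43.4% and 40.9%, then 47.1% and 80.0%, and its interval overlaps another gene. A3, on scaffold 3 at 5152670 to 5158994, had 23.4% and 65.1%, then 40.0% and 84.4% on 25 and 32 reads. A4, on scaffold 8 at 5654545 to 5656485, had 31.2% and 56.7%, then 45.5% and 79.2% on 22 and 53 reads. Their pair 1 deviations were -1.40 ± 0.20 and -1.36 ± 0.28, and in pair 2 they lay at -0.12 ± 0.44 and -0.18 ± 0.39. In A3 direction 2 of pair 1 was near the dosage, at a log2 deviation of -0.11.

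The 365 genes paternal in pair 2 alone were near the dosage in pair 1. Their median deviations were -0.05 in pair 1 and -1.35 in pair 2, and 316 lay within 0.5 of the dosage in pair 1. The class moved with centring and depth. With the median null it held 167 genes (4.52%), of which 160 were among the 365, while the class maternal in pair 2 alone held 123 genes (3.33%) in place of 49. By depth in pair 2 the class held 16.0% of genes with 40 to 98 reads, 9.9% of those with 99 to 201, and 3.73% of those with 201 to 6427. Genes paternal in both crosses showed no such change, with 26, 21 and 28 in the same depth ranges. SNPs read in 1 direction alone carried 6.44% of the pair 2 reads of the 365 genes and 2.08% of those of all genes. With SNPs read in both directions alone the class held 349 genes, 331 of them the same, and with at least 50 reads in every direction it held 91.

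C1 to C4 had the largest differences among genes with at least 50 reads in every direction and a pair 1 deviation within 0.5 of the dosage. C1, on scaffold 8 at 10822675 to 10826401, had maternal shares of 31.6%, 83.9%, 5.45% and 41.2%, and its interval overlaps another gene. C2, on scaffold 8 at 9233721 to 9235715, had 74.8%, 64.8%, 8.33% and 64.7%, and C3, on scaffold 6 at 7172642 to 7176347, had 58.2%, 70.2%, 6.45% and 66.2%. In C2 and C3 direction 2 of pair 2 lay near the dosage, and direction 1, with 60 and 62 reads, lay far below it. C4, on scaffold 6 at 15269224 to 15270548, had 43.9%, 83.3%, 17.6% and 52.4%.

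The 49 genes maternal in pair 2 alone had median deviations of 0.11 and 1.30, and 35 lay within 0.5 of the dosage in pair 1. D2, on scaffold 3 at 5818864 to 5820138, was the best covered of those named, with 285 and 268 reads in pair 2. Its maternal shares were 56.0%, 75.2%, 78.2% and 85.4%, and its deviations -0.02 ± 0.04 and 1.19 ± 0.16. D1 on scaffold 4 at 1531418 to 1534119, D3 on scaffold 7 at 10827370 to 10832766, and D4 on scaffold 6 at 3089147 to 3092357 had pair 2 deviations of 1.54 ± 0.34, 1.11 ± 0.30 and 1.02 ± 0.31. The interval of D4 overlaps another gene.

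**Figure D4:**
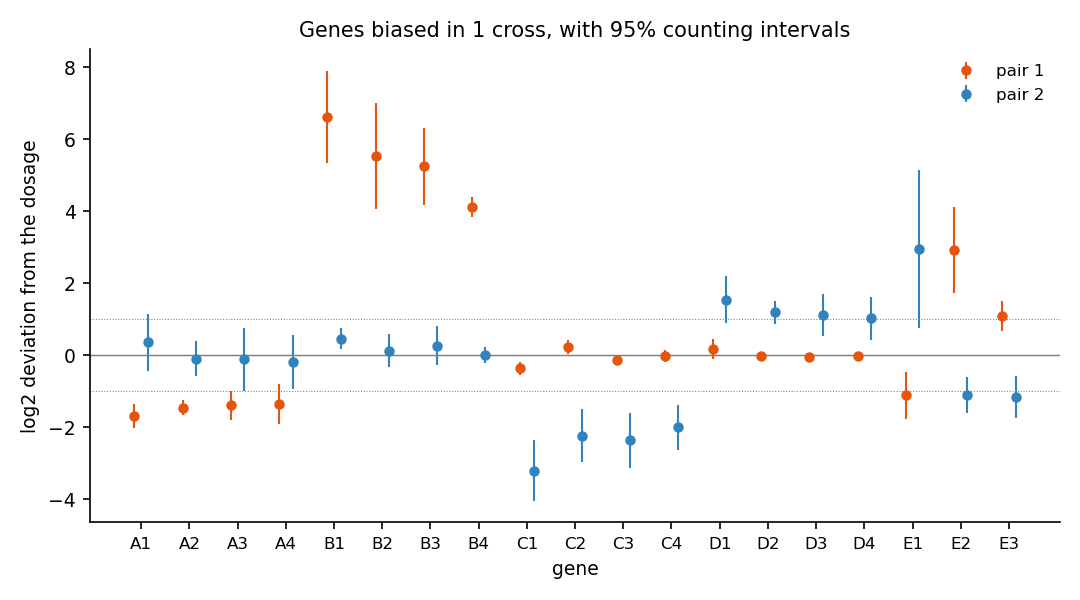
Log2 deviation from the dosage (y axis) in pair 1 and pair 2 for the genes A1 to E3 (x axis), with 95% counting intervals; A and B are paternal and maternal in pair 1 alone, C and D in pair 2 alone, and E on opposite sides. The B genes show the widest separation, for example 6.62 against 0.46 in B1.

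The 3 genes biased to opposite sides each had fewer than 50 reads in at least 1 direction. E1, on scaffold 7 at 3915505 to 3916786, had maternal shares of 55.0%, 41.1%, 100% (22 of 22 reads, which allows a paternal share of up to 13.6%) and 85.7%. E2, on scaffold 2 at 1388867 to 1391190, had 99.0%, 78.4%, 55.8% and 40.7%, and E3, on scaffold 6 at 5340408 to 5342719, had 85.4%, 75.8%, 65.0% and 30.3%. With the median null 1 gene (0.027%), E1, kept opposite sides.

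**Figure D5:**
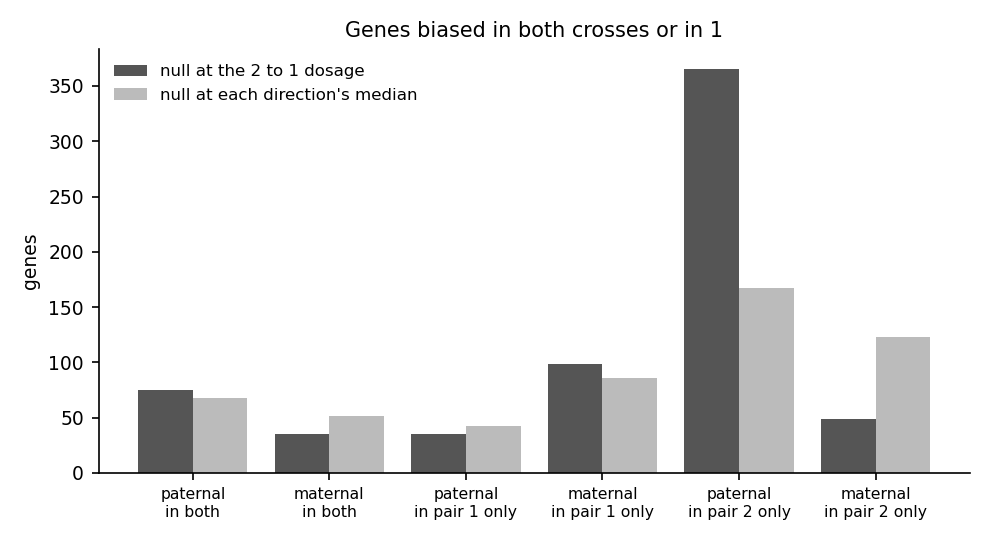
Number of genes (y axis) in each class (x axis), with the dosage as the null (dark bars) and with the median of each direction as the null (light bars). The class paternal in pair 2 alone holds 365 genes with the dosage and 167 with the median null, and the class paternal in both crosses holds 75 and 68.

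Whether a bias differed between the crosses could be tested only weakly with 2 directions in each. The edgeR quasi-likelihood test of the parent by pair interaction, with the 2 directions of a pair as replicates, called 0 of 3698 genes (0.0%). At an unadjusted p of 0.05 it gave 32 genes, and DESeq2 called 2. That test treats accession differences as spread and recovered no changed gene on simulated data, so its 0 calls say nothing about equal bias in the crosses. A likelihood ratio test beside the accession terms, with the spread pooled over genes and chosen after the data were seen, called 53 genes (1.43%). It leaves no residual degree of freedom, so no gene has a spread of its own and the calls compare these libraries against the pooled spread. Of the 53, 49 (1.33%) were more maternal in pair 1 and 4 (0.108%) more maternal in pair 2. The 49 genes had median deviations of 3.79 in pair 1 and -0.60 in pair 2, and 30 of them were among the genes maternal in pair 1 alone.

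Centring changed the balance of these calls. With TMM column sizes 35 genes (0.946%) were more maternal in pair 1 and 8 (0.216%) in pair 2, and the median pair 2 deviation of the 35 was 0.12. By the likelihood ratio test the adjusted p was 7.35e-10 for B1, 3.54e-05 for B2, 5.6e-05 for B3 and 2.82e-07 for B4 (edgeR). B1 to B4 were named for large differences between the crosses in these same counts, so their p-values are no separate support. For G1, just outside the size threshold in pair 2, the adjusted p was 8.76e-08 (edgeR likelihood ratio test). At SNP positions shared by both crosses G1 lay at 7.9 and 4.6, B4 at 4.82 and 1.31, and B1 at 6.13 and 0.21. G1 and B4 were thus on the maternal side in both crosses at the same bases. B2 and B3 had no value there. No named gene of the classes A, C and D passed the likelihood ratio test. P3 differed in size within the paternal side, with an adjusted p of 0.00497 (edgeR), and M4 and M5 within the maternal side, with 1.29e-08 and 0.0126. The P3 value compares 1 SNP in pair 1 with 8 in pair 2. M2 did not pass, with an adjusted p of 0.221 (edgeR likelihood ratio test). The fitted sizes of M4 and M5 rest on the prior count of edgeR, because the father had no read in a direction, and are no bounds. Within a single cross edgeR called 0 genes in either pair, with 118 and 101 at an unadjusted p of 0.05, and DESeq2 called 79 in pair 1 and 14 in pair 2.

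Other readouts, which the rule did not use or used in part, were available for some genes. SNPs outside annotated exons had enough reads in 315 genes, where the deviation was -1 or below in 16.2% of genes in pair 1 and 34.9% in pair 2, and the medians of all 315 were -0.58 and -0.79. All 5 genes paternal in both crosses that had such SNPs lay below the dosage there, with medians of -1.44 and -0.75. Both genes maternal in both crosses with such SNPs lay below the dosage too, with pair 1 deviations of -0.83 and -0.65, on the other side from their exonic SNPs. The background at these SNPs is thus itself paternal, and the annotation of such reads to the gene is less sure.

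SNP positions shared by the tables had reads in 469 genes, so the same bases could be compared in both crosses. There, deviations of -1 or below were found in 3.41% of genes in pair 1 and 17.3% in pair 2, and of 1 or above in 4.05% and 7.04%. All 9 genes paternal in both crosses with such positions lay below the dosage in each cross, with medians of -2.63 and -2.41. The 6 genes maternal in both crosses had medians of 2.62 and 2.33 there, and all 6 were at 1 or above in pair 1. In pair 2, 4 of them were at 1 or above and 1, M4, lay below the dosage at -0.64. The 9 genes maternal in pair 1 alone had medians of 3.39 and 0.89 at the same positions, with 4 of them at 1 or above and 3 at -1 or below in pair 2. The 3 genes paternal in pair 1 alone had medians of -2.58 and -2.59 there, and all 3 lay below the dosage in each cross. The 19 genes paternal in pair 2 alone had medians of -0.01 and -1.59. These positions are part of the exonic SNPs from which the classes were made.

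The C. orientalis crosses measured 441 of the genes, of which 4.08% had a mean deviation of -1 or below and 3.4% one of 1 or above. Of the 5 genes paternal in both grandiflora crosses, 2 were at -1 or below, and the median was -0.35. Of the 3 maternal in both, 2 were at 1 or above and 1 at -1.45. Of the 11 maternal in pair 1 alone, 4 were at 1 or above, with a median of 0.07. The 30 genes paternal in pair 2 alone had a median of 0.03, with 2 at -1 or below. These numbers are too small to tell the classes apart.

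The genes biased in both crosses lay on all 8 large scaffolds. Paternal genes numbered 17, 8, 7, 13, 4, 3, 10 and 13 on scaffolds 1 to 8, which is between 0.641% of the measured genes (scaffold 6) and 3.11% (scaffold 4). Maternal genes numbered 6, 1, 3, 6, 2, 5, 6 and 6. Another paternal gene of both crosses lay within 50 kb of 16 of the 75 (21.3%), and one lay within that distance of 7.07% of the other genes measured. None of the 35 maternal genes had another within 50 kb, against 4.15% of the other genes. Median gene length was 2899 bases for the paternal genes, 2233 for the maternal genes and 2846 for all.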

How the data were processed

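Per the labels, RNA came from dissected endosperm and libraries were made with the TruSeq RNA kit v2. The submitters' processing notes list Trimmomatic, Bismark and Bowtie2 with no version and no step. The sources used here do not give the RNA aligner, SNP caller, build or how runs were joined. The authors deposited, for each SNP, whole-number read counts of the maternal and paternal allele in 2 directions, per the file headers. Of 32 columns per table, 23 columns of other values were not used. Counting is not stated to use strand, so reads of overlapping genes cannot be told apart.

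Counts were summed over exonic SNPs per gene, taking the gene interval listed first and the other where it was empty, and genes with at least 20 reads in all 4 directions were kept. Deviations used a pseudocount of 0.5. The counting error of a log ratio is the root of the summed reciprocal counts. Shares have 95% Wilson intervals and a floor of 3 counts. The likelihood fits used edgeR 4.0.16 in R 4.3.3 on the 8 allele columns, tested across all 3698 genes with Benjamini-Hochberg adjustment at 0.05 and with an offset for the dosage. The library was a block. The fit over both crosses also had an accession term per pair, and the test of the difference had none. Both were checked on simulated data, where the test of the difference recovered no changed genes. DESeq2 1.42.0, TMM, read minimums of 1, 10 and 50, other SNP sets, a pseudocount of 1, a size of 2 and the omission of each direction were alternatives. The likelihood ratio tests and the SNP set read in both directions were chosen after the data were seen. Named genes were the 8 per side biased in both crosses with the largest smaller deviation, the 4 per cross and side biased in 1 cross with the largest difference while the other cross was within 0.5 of the dosage, all genes on opposite sides, and 3 genes on each side of the threshold. Genes with 50 or more reads in every direction were preferred where enough existed. The members and the lists were chosen with earlier results of these data known.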

Additional observations from a re-analysis of the deposited data

Results flagged for a closer look

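Of 35 sets of 4 directions that were examined, 3 held a direction far from the others. Chance flags about 1 set in 20 when sets are not chosen by their values, but these 3 genes were named for their difference between the crosses, so that rate does not apply to them. In A2 direction 2 of pair 2 stood apart, at a log2 deviation of 0.97. In C2 and C3 it was direction 1 of pair 2, at -4.33 and -4.70.

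The likelihood ratio test (edgeR, spread pooled over genes) found a difference between the crosses in the named genes that follow. Each difference is given as pair 1 minus pair 2 in fitted log2 deviation. It was 6.38 for B1, 5.70 for B2, 5.11 for B3 and 4.12 for B4, all maternal in pair 1 alone. B1 to B4 were named for this difference in the same counts, so the test is no separate support for them. The difference was 6.89 for G1, maternal in pair 1 alone with the dosage and in both crosses with the median null. At SNP positions shared by both crosses G1 lay at 7.9 and 4.6, and B4 at 4.82 and 1.31. The difference was -3.82 for P3, which was more paternal in pair 1. That value compares 1 SNP in pair 1 with 8 in pair 2, and at the shared position P3 lay at -8.23 and -6.72. It was 6.87 for M4 and -9.41 for M5, whose sizes depend on alleles without reads, and 4.22 for E2.

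E1, E2 and E3 lay on opposite sides in all directions, with deviations of pair 1 minus pair 2 of -4.07, 4.02 and 2.24. The value of E1 rests on the pseudocount, since 1 direction had no paternal read, and its pair 2 deviation of 2.95 becomes 1.73 with 3 reads in place of 0. The likelihood ratio test gave adjusted p-values of 0.0657 for E1 and 0.44 for E3 (edgeR), which miss the threshold.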

How the results depend on the processing

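Class counts are given in the order paternal in both, maternal in both, paternal in pair 1 alone, maternal in pair 1 alone, paternal in pair 2 alone, maternal in pair 2 alone (75, 35, 35, 98, 365 and 49 as reported). They were 32, 21, 10, 33, 91 and 10 with at least 50 reads, 119, 54, 72, 166, 649 and 96 with at least 10, and 255, 106, 262, 513, 1545 and 302 with at least 1. They were 43, 18, 23, 65, 48 and 14 at a size of 2. With 1 exonic SNP per gene, the one with the most reads in its lesser direction, they were 23, 26, 13, 32, 92 and 50. The pair 2 classes were 167 and 123 with the median null and 679 and 79 where directions could lie on both sides, and all SNPs gave 589 paternal genes in pair 2 alone. Leaving out 1 direction in turn gave 66 to 118, 39 to 69, 13 to 285, 49 to 275, 295 to 1498 and 42 to 725 genes, since a cross is then 1 direction and accession differences enter. A pseudocount of 1, the omission of SNPs in 2 gene intervals, and SNPs read in both directions (chosen after seeing the data) kept each count within 1.5 times. The edgeR fit over both crosses called 65 genes as reported, 108 with TMM, 145 with DESeq2, 30 with at least 50 reads, 237 with at least 1, 9 with 1 SNP per gene, 0 without the accession term and 0 to 55 without a direction. It kept none of the 15 calls among named genes without either direction of pair 2 or without the accession term, lost 8 with 1 SNP per gene, 3 with at least 50 reads and 2 without direction 2 of pair 1. The difference between crosses gave 0 calls as reported and 0 without any single direction, 2 with DESeq2, 53 and 43 with the likelihood ratio test without and with TMM, and 1275 with counting error alone, which compares these libraries and not the crosses. Within crosses, DESeq2 called 79 and 14 genes where edgeR called 0, also without any single direction. The causes were not tested. No paired analysis was possible because the columns carry no replicate numbers by which the crosses could be paired; both alleles of a library were blocked in every fit. Depth limits pair 2, with a median counting error of 0.29 against 0.09.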
